A study of Mus musculus with 20 samples.

Results

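The kidney reclaims most of the filtrate in the proximal tubule, and 10 genes that carry out this work are described here across 20 mouse kidneys. They encode the endocytic receptors Lrp2 and Cubn, the phosphate carriers Slc34a1 and Slc34a3, the glucose carriers Slc5a2 and Slc2a2, the lactate carrier Slc5a12, the sodium-proton exchanger Slc9a3, the bicarbonate carrier Slc4a4 and the water channel Aqp1. They were chosen by function and matched by symbol, and all 10 were found among the 15780 genes of the count tables.

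Kidneys came from female NCr nude mice (sp/sp, homozygous), which lack a functional thymus and mature T cells, bought at 7 wk of age. EIC are complexes made outside the body by mixing human Gd-IgA1, an IgA1 with galactose-deficient O-glycans, with a recombinant human IgG (rIgG) that binds it. EIC mice were given 6 injections of EIC into the tail vein on alternate days, each holding 0.2 mg Gd-IgA1 with 0.1 mg rIgG, and vehicle by gavage for 11 days. EIC + S60 and EIC + S120 mice had the same injections with daily sparsentan, which blocks the AT1 receptor of angiotensin II and the ETA receptor of endothelin, at 60 and 120 mg/kg. Control mice had PBS in place of EIC, and vehicle. Kidneys were taken on day 12, with 5 mice and 5 libraries in each group. The complexes are human proteins given to mice, and the model runs for days only. Libraries are named by group and mouse number.

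The libraries held 12662345 to 38651781 counts, and 13990 genes had enough counts to be tested. The members took between 1.01% and 1.49% of the counts in a library, and none had fewer than 905 counts in any mouse, so that counting error was small beside the spread between mice. Control 651 and Control 652 were the deepest libraries, with 37548347 and 38651781 counts. Every listed gene had at least 1 count in EIC 65, while 234 to 654 of them had none in each of the other 19 libraries. Shares of all genes refer to the 13990 genes of this list that were tested. RNA came from kidney tissue and not from sorted cells, so fewer cells of a type and less RNA per cell cannot be told apart. Markers of podocytes, endothelium, thick ascending limb, distal tubule and collecting duct were present, adrenal markers summed to at most 3.155 CPM (counts per 1000000 counts of the TMM-scaled library), and the 12 other proximal tubule markers to between 13190 and 22400 CPM.

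In the proximal tubule, a dense brush border faces the filtrate, and the sodium pump on the blood side keeps sodium low inside the cell. Apical carriers use that gradient to take up phosphate, glucose and lactate and to export protons, and basolateral carriers hand glucose and bicarbonate on to the blood. Filtered protein is bound by megalin (Lrp2) and cubilin (Cubn), drawn into endosomes and broken down in lysosomes. Loss of these functions gives protein, phosphate, glucose and bicarbonate in the urine.

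None of the 10 genes passed the test in any of the 6 comparisons between groups, at an adjusted p under 0.05 (edgeR's quasi-likelihood test, with p-values adjusted by the method of Benjamini and Hochberg across the 13990 genes). In EIC vs. Control 0 of 10 members were called, against 2.97% of all genes. The count was also 0 of 10 in EIC + S60 vs. EIC, where 0.0% of all genes were called, and in EIC + S120 vs. EIC, where 0.0572% were. It was 0 of 10 in EIC + S120 vs. EIC + S60 (0.0643% of all genes), in EIC + S60 vs. Control (1.29%) and in EIC + S120 vs. Control (5.55%). DESeq2 and limma-voom also called 0 members in each comparison, although DESeq2 called 5 genes in EIC + S60 vs. EIC.

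An unadjusted p under 0.05 was reached by 2 of 10 members in EIC vs. Control, against 16.8% of all genes, and by 2 of 10 in EIC + S60 vs. EIC, against 6.05%. In EIC + S120 vs. Control it was reached by 1 of 10 members, against 20% of all genes. In EIC + S120 vs. EIC, EIC + S120 vs. EIC + S60 and EIC + S60 vs. Control it was reached by 0 members, against 8.45%, 8.08% and 12.7% of all genes. In no comparison did the ranges of the groups separate for any member, while they separated for 4.01% of all genes in EIC vs. Control, 5.82% in EIC + S120 vs. Control and 3.82% in EIC + S60 vs. Control. Between the groups given EIC they separated for 0.886% of all genes in EIC + S60 vs. EIC, 1.2% in EIC + S120 vs. EIC, and 1.66% when EIC + S120 was set against EIC + S60. With 5 mice against 5, the 95% intervals of the log2 fold change (LFC), taken from limma-trend, show how precise each estimate was. Each holds for 1 member in 1 comparison and is not adjusted for the number of tests. In EIC vs. Control the interval ends ran between −0.66 and 0.47 over the 10 members, in EIC + S60 vs. EIC between −0.40 and 0.76, and in EIC + S120 vs. EIC between −0.43 and 0.67. The SE of an LFC ranged from 0.08 for Aqp1 to 0.19 for Slc5a12. The median LFC of the members lay between −0.09 and 0.11 in the 6 comparisons, and the median over all genes lay between −0.01 and 0.00.

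**Figure D1:**
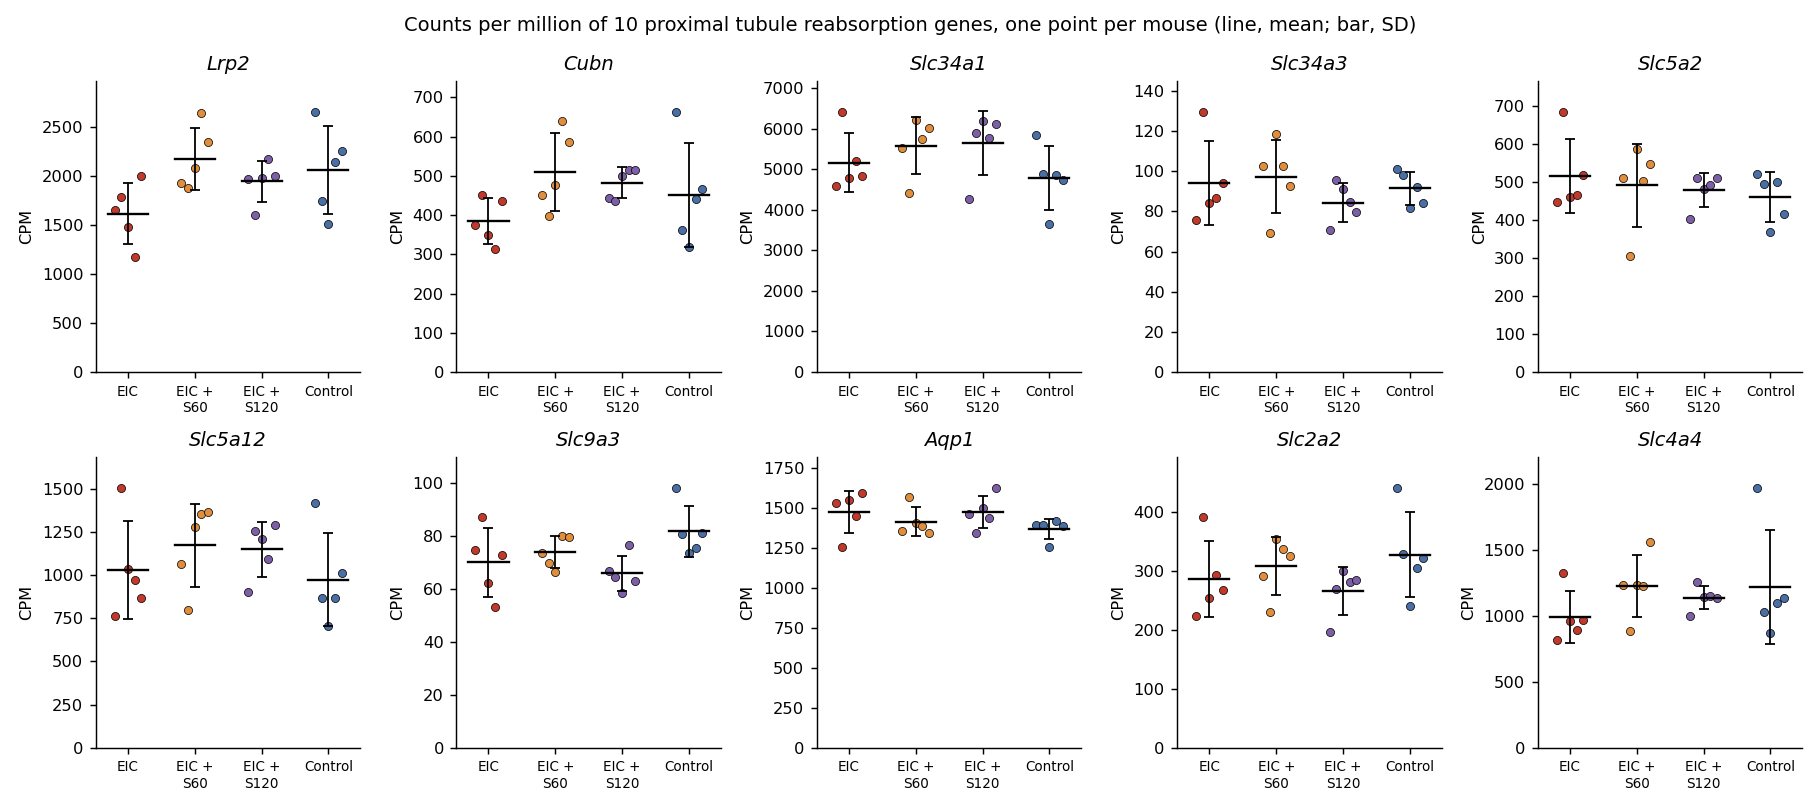
CPM (y axis, from 0) of each of the 10 genes in EIC, EIC + S60, EIC + S120 and Control mice, with 1 point per mouse, a line at the mean and a bar of 1 SD over 5 mice. The groups overlap for every gene, and the spread between mice of a group is wide, as for Slc4a4 in Control, where Control 651 had 1974 CPM.

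The members differed widely in level. Per kilobase of exon, Slc34a1 was highest in every group, with a mean of 1104 CPM per kb in EIC, 1194 in EIC + S60, 1208 in EIC + S120 and 1024 in Control mice. Aqp1 followed with means between 520.2 and 560.7 CPM per kb, and its range did not meet that of Slc34a1 in any group. Slc5a12 came next, with means between 239.8 and 288.5 CPM per kb, and its range overlapped that of Slc5a2 in 3 groups, the exception being EIC + S120. Lrp2 and Slc4a4 lay close together, with overlapping ranges in every group. Slc2a2 and Slc34a3 were also neighbours whose ranges overlapped in every group. Cubn, with means between 25.73 and 34.13 CPM per kb, stood above Slc9a3, whose means lay between 11.93 and 14.83 CPM per kb and whose range touched no other. The order of the 10 means was the same in all 4 groups.

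The endocytic receptors had the largest LFCs among the members when the sparsentan groups were set against EIC, although neither passed the test. Lrp2 encodes megalin, the large receptor that binds filtered albumin, vitamin carriers and hormones, and spans 161.726 kb of chromosome 2 (69424340 to 69586065, minus strand; GRCm38, GENCODE vM21). Lrp2 had 1655, 1780, 1476, 1173 and 1995 CPM in EIC mice, against 2649, 1739, 1507, 2139 and 2256 CPM in Control mice. In 2 EIC mice the value was below every Control, and the other three lay within the Control range. The LFC was −0.35 (SE 0.15, 95% interval −0.66 to −0.02, adjusted p = 0.228 by edgeR's quasi-likelihood test). It was −0.23 without Control 651 and −0.44 without Control 653.

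Lrp2 had 1923, 1876, 2078, 2640 and 2348 CPM in EIC + S60 mice, of which 3 were above every EIC mouse. The LFC of EIC + S60 vs. EIC was 0.43 (SE 0.15, 95% interval 0.12 to 0.76, adjusted p = 0.738 by edgeR), the lowest adjusted p of any member in that comparison, in which edgeR called no gene at all. EIC + S120 mice had 1970, 1605, 1983, 2177 and 1998 CPM, with an LFC against EIC of 0.27 (95% interval −0.04 to 0.61, adjusted p = 0.646). Against Control, the LFC was 0.08 in EIC + S60 (95% interval −0.23 to 0.41) and −0.08 in EIC + S120 (−0.38 to 0.26). The comparisons of EIC with Control and of the sparsentan groups with EIC share the EIC libraries.

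Cubn encodes cubilin, a receptor without a membrane-spanning part that needs amnionless and megalin for uptake, and lies on chromosome 2 as well (13276338 to 13491813, minus strand). It had 450.7, 397.1, 475.7, 640.6 and 584.8 CPM in EIC + S60 mice and 373.9, 451.1, 348.3, 312.3 and 435.4 CPM in EIC mice. Here too 3 EIC + S60 mice were above every EIC mouse. The LFC was 0.41 (SE 0.16, 95% interval 0.07 to 0.73, adjusted p = 0.755 by edgeR). Cubn had 443.0, 435.6, 500.3, 514.4 and 515.8 CPM in EIC + S120 mice, an LFC of 0.33 against EIC (95% interval 0.0045 to 0.67, adjusted p = 0.601 by edgeR). In Control mice it had 661.9, 361.8, 319.7, 441.2 and 466.9 CPM, and the LFC of EIC vs. Control was −0.23 (95% interval −0.53 to 0.14), or −0.04 without Control 651.

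**Figure D2:**
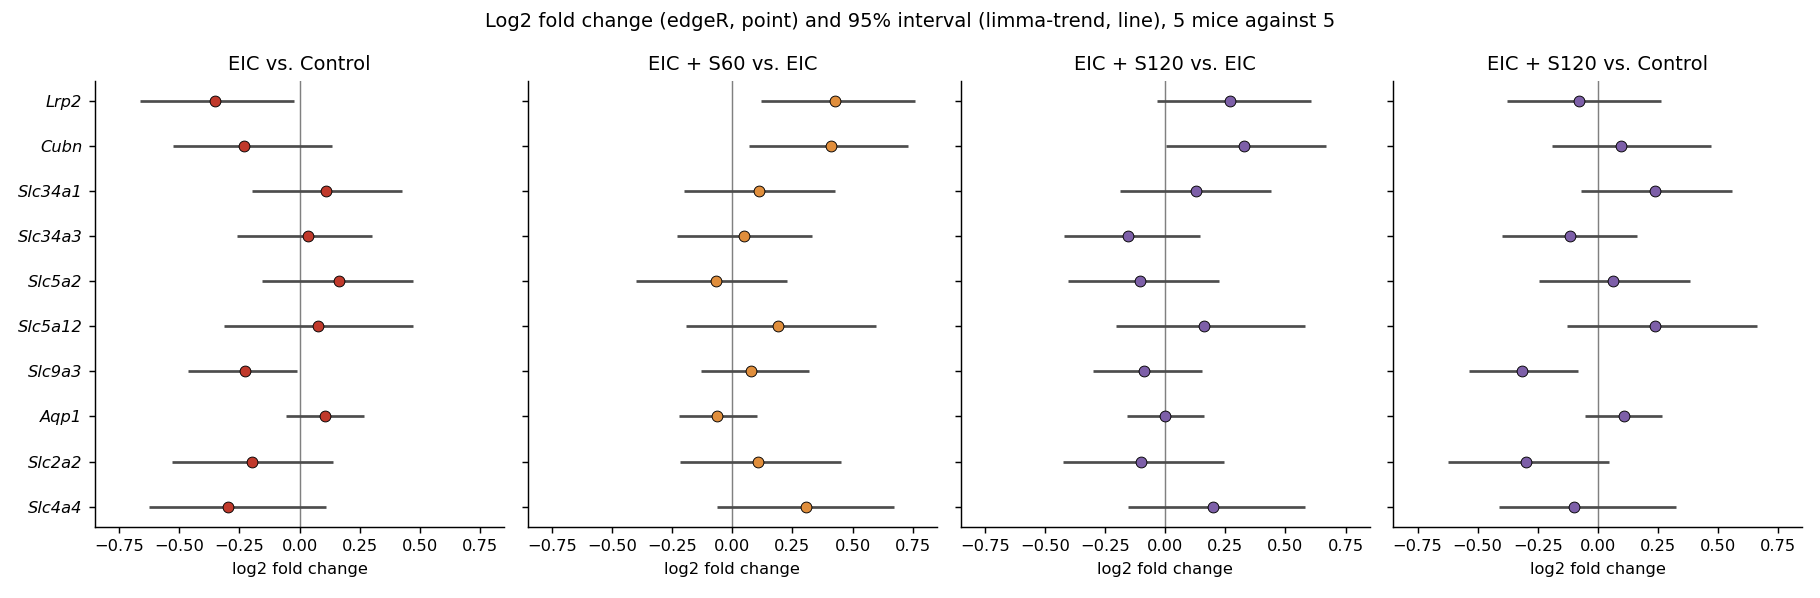
LFC (x axis, log2) of each of the 10 genes in 4 comparisons, with the edgeR estimate as a point and the 95% interval from limma-trend as a line, 5 mice against 5. The intervals lie above 0 for Lrp2 and Cubn in EIC + S60 vs. EIC and for Cubn in EIC + S120 vs. EIC, and below 0 for Lrp2 and Slc9a3 in EIC vs. Control and for Slc9a3 in EIC + S120 vs. Control, yet no gene passed the test after adjustment.

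Since Lrp2 and Cubn, the receptors that act together in protein uptake, followed each other closely from mouse to mouse, the windows from 250 bases before to 50 bases after their start sites were compared (RefSeq, GRCm38.p6). That of Lrp2 is at chr2:69585980-69586279 and that of Cubn at chr2:13491827-13492126, both read from the minus strand, and the capitals mark a match to the HNF4 site CAAAGTNCA.
Lrp2: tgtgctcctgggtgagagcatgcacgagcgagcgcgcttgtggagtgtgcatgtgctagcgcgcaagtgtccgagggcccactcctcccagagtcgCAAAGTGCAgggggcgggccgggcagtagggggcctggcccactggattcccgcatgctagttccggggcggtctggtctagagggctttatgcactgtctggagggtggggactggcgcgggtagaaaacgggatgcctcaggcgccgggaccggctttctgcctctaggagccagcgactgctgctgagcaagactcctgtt
Cubn: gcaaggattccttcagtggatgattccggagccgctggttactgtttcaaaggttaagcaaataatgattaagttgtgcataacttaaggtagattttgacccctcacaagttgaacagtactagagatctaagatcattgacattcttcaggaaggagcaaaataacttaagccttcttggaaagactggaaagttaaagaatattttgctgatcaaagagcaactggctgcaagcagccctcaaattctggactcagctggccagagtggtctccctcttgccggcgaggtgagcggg
The match in Lrp2 begins at position −154 from the start site, and such a match is found in 1.412% of 32851 promoter windows of the same length. HNF4 factors are nuclear receptors that maintain proximal tubule identity. The Cubn window held no match to any of the 6 motifs reported, and the windows differ in base composition, with 65.0% G or C in Lrp2 and 44.3% in Cubn. The motifs were the HNF4 site, the E-box CACGTG, the TATA box TATAAA, the PPAR direct repeat, the glucocorticoid response palindrome and the CCAAT box, on both strands.

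Among the 12 partners of megalin and cubilin in uptake and recycling, 1 passed the test in EIC vs. Control and in EIC + S120 vs. Control, and none in the other comparisons. Fcgrt, which encodes the neonatal Fc receptor that binds IgG and albumin and returns them from endosomes, had 330.9, 357.3, 315.0, 353.9 and 327.7 CPM in EIC mice, against 222.1, 185.4, 144.9, 212.1 and 285.7 CPM in Control mice. Every EIC mouse was above every Control mouse. Fcgrt rose with an LFC of 0.68 (SE 0.13, adjusted p = 0.00656 by edgeR's quasi-likelihood test), and in EIC + S120 vs. Control by 0.62 (SE 0.13, adjusted p = 0.0069). In EIC + S60 vs. Control its LFC was 0.49 (adjusted p = 0.0736 by edgeR). Clcn5, the endosomal chloride-proton exchanger, had the smallest p of the list in EIC + S60 vs. EIC, with an LFC of 0.30 (adjusted p = 0.754). The median LFC of the 12 genes was −0.07 in EIC vs. Control, where the median of all genes was −0.01. The call of Fcgrt was lost in EIC vs. Control without both deep Control libraries, and in EIC + S120 vs. Control when only the 10 libraries compared were fitted.

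Slc34a1 encodes NaPi-IIa, the main sodium-phosphate carrier of the brush border, and lies on chromosome 13 (55398187 to 55415592, plus strand). It had 4584, 6408, 4779, 5211 and 4843 CPM in EIC mice, 5532, 4412, 6204, 5759 and 6016 CPM in EIC + S60 mice, 4262, 5896, 6201, 5781 and 6111 CPM in EIC + S120 mice and 5841, 4883, 3642, 4852 and 4727 CPM in Control mice. In EIC + S120, 4 of 5 mice lay between 5781 and 6201 CPM and EIC + S120 77 stood far below them. The LFC of EIC + S120 vs. Control was 0.24 (95% interval −0.07 to 0.56, adjusted p = 0.32 by edgeR), and 0.32 without Control 651. That of EIC vs. Control was 0.11 (95% interval −0.20 to 0.43).

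The transcription factors Hnf4a, Hnf4g, Maf and Pax8, which are active in this segment, did not pass in any comparison.

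Slc34a3 encodes NaPi-IIc, a phosphate carrier of lower abundance in adult mice (chromosome 2, 25228898 to 25234364, minus strand). It had 75.65, 129.4, 84.31, 86.48 and 93.94 CPM in EIC mice, 102.8, 69.32, 118.7, 102.7 and 92.62 CPM in EIC + S60 mice, 70.58, 95.45, 91.18, 84.92 and 79.68 CPM in EIC + S120 mice and 101.0, 97.92, 81.69, 92.22 and 84.26 CPM in Control mice. The LFC of EIC + S120 vs. Control was −0.12 (95% interval −0.40 to 0.16, adjusted p = 0.683 by edgeR), a sign opposite to that of Slc34a1 in the same comparison.

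Within a mouse, the ratio of Slc34a3 to Slc34a1 counts was 0.0166, 0.0162, 0.0147, 0.0147 and 0.0130 in EIC + S120, against 0.0173, 0.0201, 0.0224, 0.0190 and 0.0178 in Control. All 5 EIC + S120 mice were below all 5 Control mice. The difference of the mean log2 ratio was −0.36 (exact permutation test, two-sided, p = 0.00794, the smallest that 5 mice against 5 allow). Over the 24 tests of 4 ratios in 6 comparisons the adjusted p was 0.19. A single test at the smallest possible p cannot pass that adjustment. The ratios were chosen after the members' values had been seen, so their p-values describe these mice and are no test of a shift. The share of other gene pairs whose ratios separate was not computed. Of single genes, 5.82% separated in EIC + S120 vs. Control. In EIC the ratio was 0.0165, 0.0202, 0.0176, 0.0166 and 0.0194, so that 4 EIC + S120 mice were below every EIC mouse (difference −0.27, exact permutation p = 0.0159, adjusted p = 0.19).

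**Figure D3:**
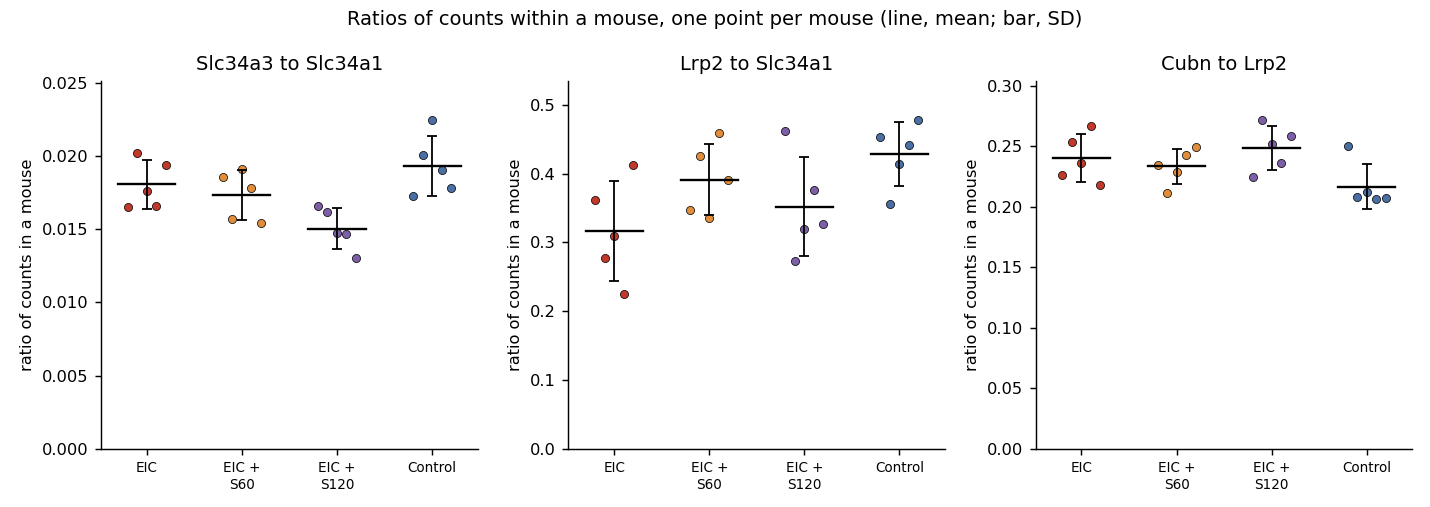
Ratio of counts within a mouse (y axis, from 0) of Slc34a3 to Slc34a1, Lrp2 to Slc34a1 and Cubn to Lrp2 in EIC, EIC + S60, EIC + S120 and Control mice, with 1 point per mouse, a line at the mean and a bar of 1 SD over 5 mice. The EIC + S120 mice lie between 0.0130 and 0.0166 for Slc34a3 to Slc34a1, below the Control mice, which lie between 0.0173 and 0.0224.

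The ratio of Lrp2 to Slc34a1 counts was 0.361, 0.278, 0.309, 0.225 and 0.412 in EIC mice, against 0.454, 0.356, 0.414, 0.441 and 0.477 in Control mice. In 3 EIC mice it was below every Control mouse, and the difference of the mean log2 ratio was −0.46 (exact permutation p = 0.0317, adjusted p = 0.19). In EIC + S120 mice it was 0.462, 0.272, 0.320, 0.377 and 0.327, and again 3 were below every Control mouse (difference −0.30, exact permutation p = 0.0952, adjusted p = 0.275). EIC + S120 and EIC mice differed by 0.16 (exact permutation p = 0.452, adjusted p = 0.537). Cubn to Lrp2 was 0.225, 0.271, 0.252, 0.236 and 0.258 in EIC + S120 mice, against 0.250, 0.208, 0.212, 0.206 and 0.207 in Control mice, a difference of 0.20 (exact permutation p = 0.0238, adjusted p = 0.19). None of the 24 ratio tests passed after adjustment, which no single test could do with 5 mice against 5.

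Of the 12 regulators of phosphate handling and other phosphate carriers, 1 passed in EIC + S120 vs. Control and none in the other comparisons. In EIC + S120 vs. Control 5.55% of all genes passed. Pdzk1, a scaffold that anchors apical carriers such as NaPi-IIa, had 1078, 1213, 1395, 1266 and 1485 CPM in EIC + S120 mice, against 999.4, 1034, 835.7, 1021 and 946.8 CPM in Control mice. All EIC + S120 mice were above all Control mice, and Pdzk1 rose with an LFC of 0.41 (SE 0.10, adjusted p = 0.0139 by edgeR). The scaffold Slc9a3r2 had an LFC of 0.34 in EIC vs. Control (adjusted p = 0.105) and of −0.33 in EIC + S60 vs. EIC (adjusted p = 0.738). Cyp27b1, which makes active vitamin D, did not pass either, with a value of 1.63 in EIC + S120 vs. EIC + S60 (LFC, 95% interval 0.20 to 2.22, adjusted p = 0.418 by edgeR).

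Slc5a2 encodes SGLT2, which takes up most of the filtered glucose early in the tubule (chromosome 7, 128265657 to 128272430, plus strand). It ranged from 447.8 to 684.7 CPM in EIC, from 306.7 to 588.5 in EIC + S60, from 402.7 to 511.4 in EIC + S120 and from 368.0 to 521.8 CPM in Control mice. Every one of these ranges overlapped the others. The LFC of EIC vs. Control was 0.16 (95% interval −0.15 to 0.47, adjusted p = 0.623 by edgeR), and those of EIC + S60 and EIC + S120 vs. EIC were −0.07 and −0.10. The first became 0.06 without EIC + S60 72, and the second 0.01 without EIC 66.

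Slc2a2 encodes GLUT2, the basolateral carrier through which glucose leaves the cell (chromosome 3, 28697903 to 28731359, plus strand). It ranged from 195.7 to 300.1 CPM in EIC + S120 mice, against 240.7 to 440.8 CPM in Control mice, with an LFC of −0.30 (SE 0.16, 95% interval −0.62 to 0.05, adjusted p = 0.32 by edgeR). Without Control 651 the LFC was −0.17. In EIC mice it ranged from 222.7 to 391.7 CPM and in EIC + S60 mice from 229.9 to 354.3 CPM, with LFCs of −0.20 and −0.09 against Control.

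Of 7 other genes of glucose handling, the gluconeogenic enzymes G6pc and Pck1 passed, while the enzyme Fbp1 and the 4 other sugar carriers did not pass in any comparison. In EIC vs. Control 2 genes passed, against 2.97% of all genes, in EIC + S60 vs. Control 1, against 1.29%. In EIC + S120 vs. Control 2 passed, against 5.55%, and in the other comparisons none. G6pc encodes glucose-6-phosphatase, which frees glucose in the last step of gluconeogenesis. It had 746.9, 1532, 1206, 1714 and 1585 CPM in EIC + S120 mice, against 674.6, 537.1, 441.3, 375.5 and 508.0 CPM in Control mice, with no overlap. G6pc rose with an LFC of 1.42 (SE 0.24, adjusted p = 0.00224 by edgeR). In EIC mice it had 884.7, 1213, 602.4, 1479 and 945.7 CPM, an LFC against Control of 1.01 (SE 0.24, adjusted p = 0.0349), and this call was lost in 7 of 20 fits that left out 1 library, namely without Control 652, 653, 654 or 655 or EIC 66, 68 or 69.

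Pck1 encodes the cytosolic enzyme that commits oxaloacetate to gluconeogenesis. It had 5621, 9752, 9035, 9140 and 9967 CPM in EIC + S120 mice, against 4725, 3767, 3156, 4053 and 5092 CPM in Control mice. The groups did not overlap, and EIC + S120 77 lay nearest to Control. Pck1 rose with an LFC of 1.07 (SE 0.17, adjusted p = 0.000114 by edgeR), and the calls of Pck1 and G6pc in this comparison held in every alternative. Pck1 also passed in EIC vs. Control (LFC 0.58, SE 0.17, adjusted p = 0.0335), a call lost without Control 652, 653 or 654 or EIC 67, 68 or 69. It passed in EIC + S60 vs. Control (LFC 0.58, SE 0.17, adjusted p = 0.048), a call lost in 14 of 20 such fits, those without Control 652, 653 or 654, EIC 65, 67 or 69, any EIC + S60 mouse or EIC + S120 78, 79 or 80. The LFCs of Pck1 and G6pc in EIC + S120 vs. EIC were 0.49 and 0.40 (adjusted p = 0.31 and 0.679 by edgeR). The list's median LFC in EIC + S120 vs. Control was −0.04, against −0.01 over all genes.

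**Figure D4:**
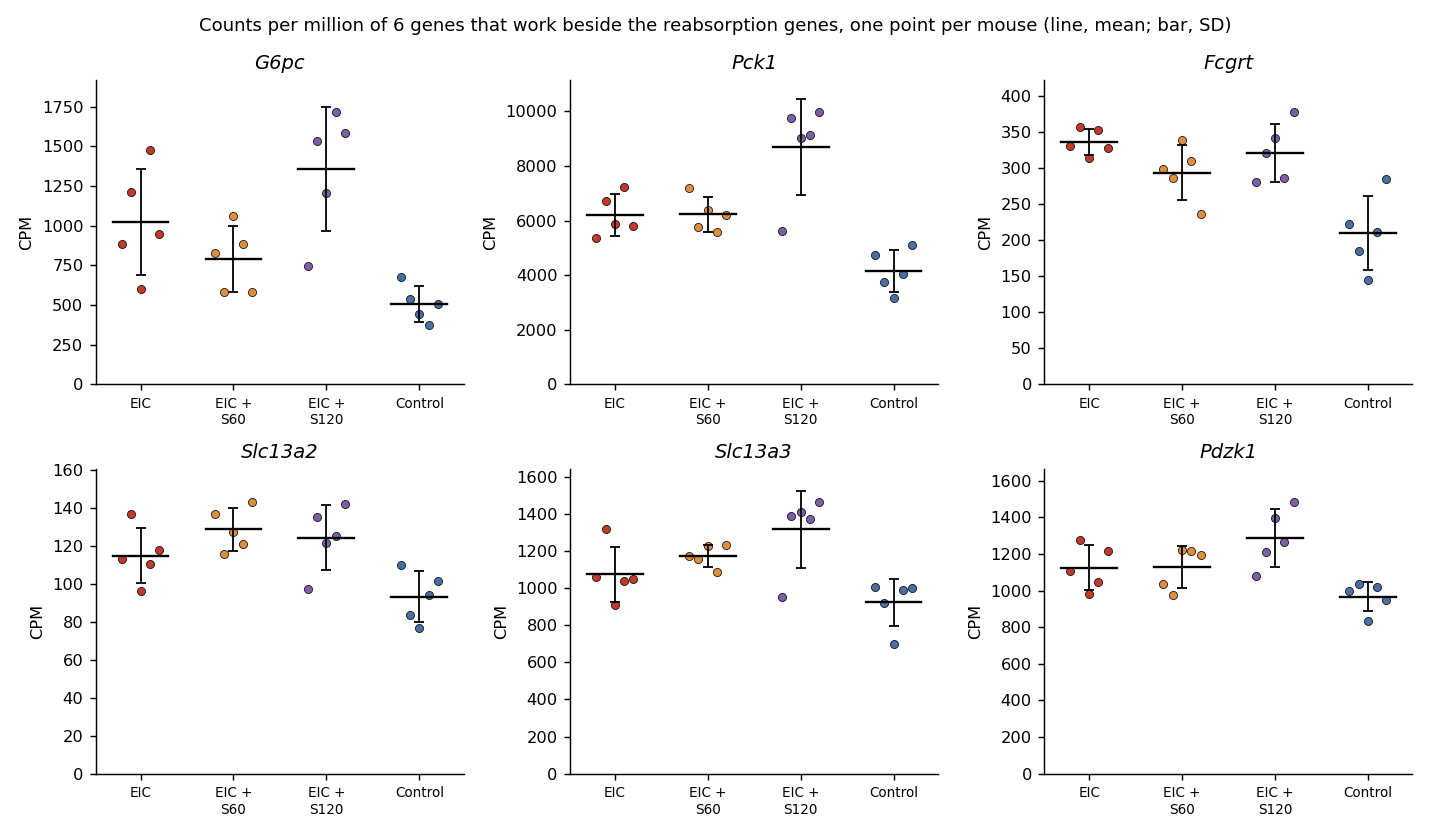
CPM (y axis, from 0) of G6pc, Pck1, Fcgrt, Slc13a2, Slc13a3 and Pdzk1 in EIC, EIC + S60, EIC + S120 and Control mice, with 1 point per mouse, a line at the mean and a bar of 1 SD over 5 mice. For G6pc the EIC + S120 mice lie between 746.9 and 1714 CPM and the Control mice between 375.5 and 674.6 CPM.

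Slc5a12 encodes a low-affinity sodium-coupled lactate carrier of the brush border (chromosome 2, 110597298 to 110647779, plus strand). It had 764.0, 1504, 1032, 971.0 and 868.0 CPM in EIC mice and 1417, 865.1, 705.9, 867.9 and 1012 CPM in Control mice. A single mouse of each group, EIC 66 and Control 651, stood above all the rest, which were at most 1032 CPM. The LFC of 0.08 (95% interval −0.32 to 0.47, adjusted p = 0.888 by edgeR) became −0.09 without EIC 66 and 0.26 without Control 651. EIC + S60 mice ranged from 800.0 to 1365 CPM and EIC + S120 mice from 899.9 to 1292 CPM, with LFCs against EIC of 0.19 (95% interval −0.19 to 0.60) and 0.16 (−0.21 to 0.58).

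Of 8 other carriers of sulfate, dicarboxylates, lactate and urate, 2 passed in EIC + S120 vs. Control, 1 in EIC + S60 vs. Control and none in the other comparisons. Of all genes, 5.55% and 1.29% passed in the first 2 comparisons named. Slc13a3, the basolateral dicarboxylate carrier, had 952.0, 1390, 1409, 1371 and 1465 CPM in EIC + S120 mice, against 1005, 920.2, 700.5, 987.2 and 1000 CPM in Control mice. It rose with an LFC of 0.51 (SE 0.12, adjusted p = 0.0107 by edgeR), although EIC + S120 77 lay within the Control range. Slc13a2, the apical carrier of citrate and succinate, did not pass in EIC vs. Control. Its LFC there was 0.30 (adjusted p = 0.142 by edgeR). With EIC as the reference, the LFC was 0.17 for EIC + S60 (adjusted p = 0.847). For EIC + S120 it was 0.11 (adjusted p = 0.805). With Control as the reference, Slc13a2 passed in both sparsentan groups. Its LFC was then 0.47 for EIC + S60 (SE 0.11, adjusted p = 0.0293). That of EIC + S120 was 0.41 (SE 0.11, adjusted p = 0.0252). These 2 calls were each lost in 6 of 20 fits that left out 1 library. They were without Control 652, 653 or 654 or EIC + S60 71, 73 or 75 in EIC + S60 vs. Control, and without Control 652, 653 or 654 or EIC + S120 78, 80 or 81 in EIC + S120 vs. Control. Slc16a1, a lactate carrier, had LFCs of 0.63 and 0.71 in EIC + S120 vs. EIC and vs. EIC + S60 (adjusted p = 0.35 and 0.218 by edgeR).

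Slc9a3 came nearest to the threshold of all members. It encodes NHE3, which exchanges sodium for protons at the brush border and accounts for much of sodium and bicarbonate reabsorption (chromosome 13, 74121457 to 74169442, plus strand). It had 66.61, 64.49, 58.30, 76.35 and 62.71 CPM in EIC + S120 mice, against 97.96, 80.56, 73.36, 75.29 and 80.93 CPM in Control mice. Of the EIC + S120 mice, 4 were below every Control mouse and EIC + S120 80 was not. The LFC was −0.32 (SE 0.11, 95% interval −0.54 to −0.08, adjusted p = 0.0948 by edgeR's quasi-likelihood test). Without Control 651 it was −0.23, and the smallest adjusted p in the 28 alternatives was 0.055.

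EIC mice had 74.40, 87.12, 62.14, 52.92 and 72.76 CPM of Slc9a3, of which 3 were below every Control mouse. The LFC was −0.23 (95% interval −0.46 to −0.01, adjusted p = 0.293 by edgeR). In EIC + S60 mice Slc9a3 had 73.52, 69.61, 66.13, 79.95 and 79.57 CPM, with LFCs of −0.15 against Control (95% interval −0.37 to 0.08) and 0.08 against EIC (−0.13 to 0.32). The start-site window of Slc9a3, at chr13:74121163-74121462 on the plus strand of GRCm38.p6, is shown as that of the member nearest to the threshold, with the E-box CACGTG in capitals.
Slc9a3: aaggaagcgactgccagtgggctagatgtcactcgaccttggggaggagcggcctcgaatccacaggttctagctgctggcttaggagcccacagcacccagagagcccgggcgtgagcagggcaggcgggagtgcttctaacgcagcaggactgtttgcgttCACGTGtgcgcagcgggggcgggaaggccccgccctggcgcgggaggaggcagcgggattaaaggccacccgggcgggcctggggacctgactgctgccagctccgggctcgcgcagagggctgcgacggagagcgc
The E-box begins at −87 and is found in 7.15% of all windows. CLOCK and ARNTL, the activators of the circadian clock, are among the factors that bind this sequence. The windows of Slc34a3, Slc2a2, Slc4a4 and Aqp1 matched none of the motifs reported other than the CCAAT box, which stood in those of Slc34a3, Slc2a2 and Slc4a4 and in 37.408% of all windows. Windows were found for 8 of the 10 members.

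Slc4a4 encodes NBCe1, which carries bicarbonate with sodium to the blood side (chromosome 5, 88886818 to 89239653, plus strand). It had 815.9, 1329, 960.7, 896.5 and 971.6 CPM in EIC mice, against 1974, 1030, 869.1, 1096 and 1141 CPM in Control mice. Control 651 stood alone at the top, far above the other four Control mice. The LFC of EIC vs. Control was −0.30 (95% interval −0.62 to 0.11, adjusted p = 0.438 by edgeR) and −0.05 without Control 651. In EIC + S60 vs. EIC the LFC was 0.31 (95% interval −0.06 to 0.67) and in EIC + S120 vs. EIC 0.20 (−0.15 to 0.58).

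Of 10 other genes of sodium, proton and bicarbonate handling, 1 passed in EIC + S120 vs. Control, against 5.55% of all genes, and none in the other comparisons. Car4, the membrane-bound carbonic anhydrase, had 67.26, 70.80, 97.23, 95.20 and 75.45 CPM in EIC + S120 mice, against 65.50, 62.11, 46.29, 51.69 and 63.14 CPM in Control mice. All 5 EIC + S120 mice were above all Control mice, with a rise in LFC of 0.49 (SE 0.14, adjusted p = 0.045 by edgeR). This call was lost in 13 of 20 fits that left out 1 library, those without EIC + S120 79, 80 or 81, EIC + S60 71, 72 or 73, EIC 65, 68 or 69 or Control 652, 653, 654 or 655. Atp1b1, a subunit of the sodium pump, had LFCs of 0.19 in EIC vs. Control and 0.21 in EIC + S60 vs. Control (adjusted p = 0.199 and 0.222 by edgeR).

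Aqp1 encodes the constitutive water channel of the proximal tubule, which is also found in the thin descending limb, the descending vasa recta and red blood cells (chromosome 6, 55336432 to 55348555, plus strand). It varied least of the members, with a highest value over all mice 1.3 times the lowest, against 1.76 to 2.42 times for the other nine. Aqp1 had 1528, 1253, 1548, 1446 and 1590 CPM in EIC mice, against 1390, 1389, 1252, 1416 and 1385 CPM in Control mice. In EIC, 4 of 5 mice were above every Control mouse, and EIC 66 was at the bottom of the Control range. The LFC was 0.11 (SE 0.08, 95% interval −0.06 to 0.27, adjusted p = 0.504 by edgeR). In EIC + S120 mice it had 1462, 1341, 1498, 1436 and 1623 CPM, again with 4 of 5 above every Control mouse (LFC 0.11, 95% interval −0.06 to 0.27, adjusted p = 0.455). EIC + S60 mice ranged from 1340 to 1567 CPM.

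Of 9 genes of the other places that hold Aqp1, none passed in any comparison. In EIC vs. Control 5 of the 9 had an unadjusted p under 0.05, against 16.8% of all genes. The 9 genes summed to 734.6 to 1475 CPM in EIC mice, against 632.0 to 921.2 CPM in Control mice. The median LFC of the 9 was 0.88, against −0.01 over all genes. Most of the 9 were red cell genes, so these values do not describe thin limb or vasa recta by themselves. The red cell genes Alas2, which starts heme synthesis, and Hba-a2, an alpha-globin, had LFCs of 1.03 and 1.09 (adjusted p = 0.0571 and 0.0592 by edgeR). Reads of the near-identical Hba-a1 and Hba-a2 may have been shared in the counting. The part of red cell RNA in the Aqp1 values was not tested.

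Most of the variance of the members lay between mice of the same group, as it did over all genes. Group explained a median of 17.6% of the variance of log2 CPM over the 10 members, against 19.2% over all genes and 23.3% over the 3744 genes that averaged 50 CPM or more. The share was highest for Lrp2, at 34.2%, and lowest for Slc5a2, at 5.58%. The SD of log2 CPM over 20 mice had a median of 0.26 over the members, against 0.19 over all genes and 0.13 over those abundant genes.

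**Figure D5:**
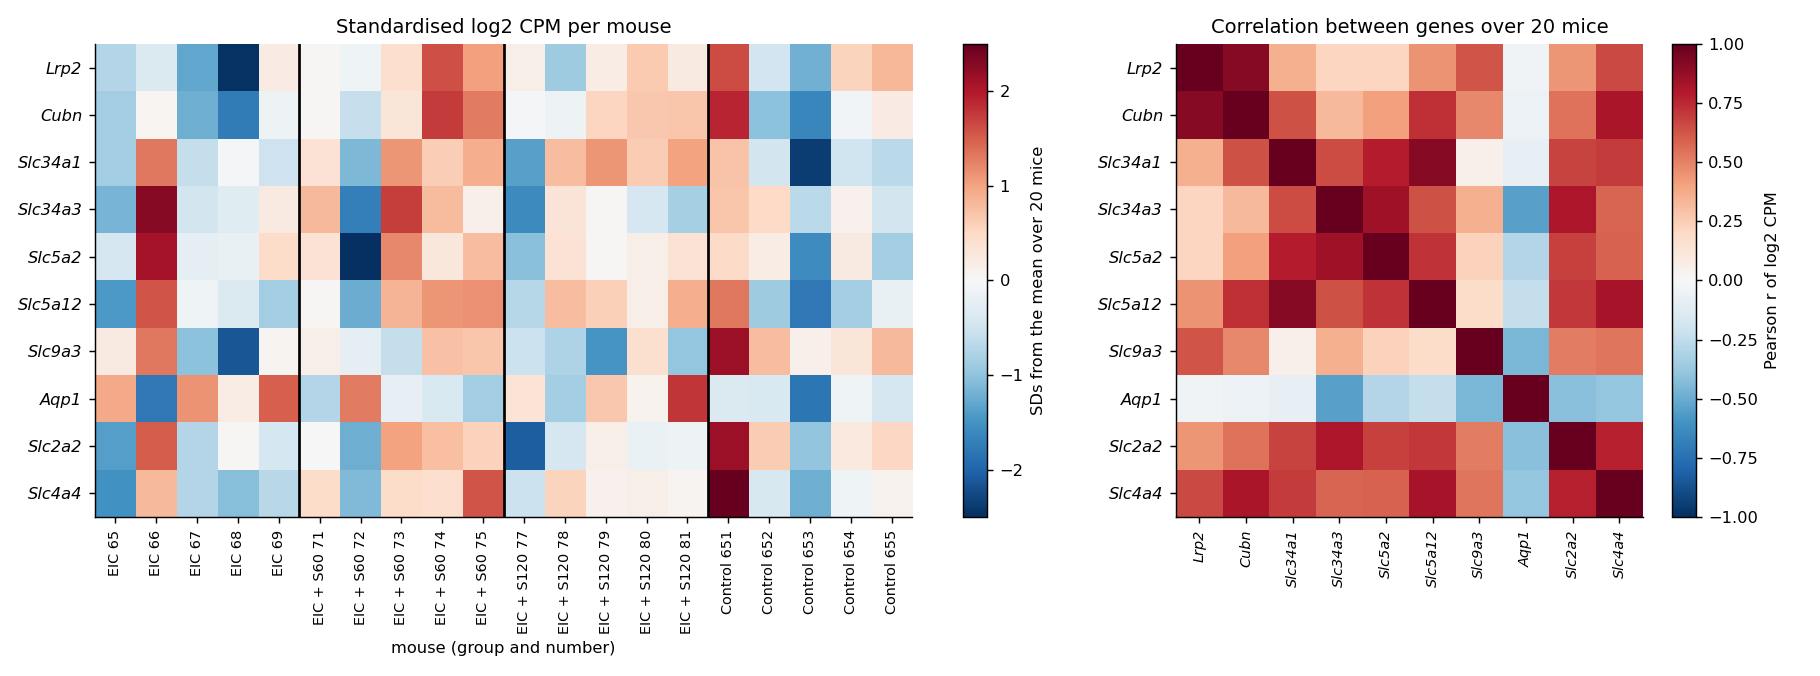
Left, log2 CPM of each gene in each mouse, standardised over 20 mice (color, SDs from the mean), with lines between EIC, EIC + S60, EIC + S120 and Control. Right, Pearson r between genes over the 20 mice (color), where the 36 pairs without Aqp1 are positive and the 9 pairs with Aqp1 negative.

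High and low values came from the same few mice. Control 651 had the highest value of 5 members (Lrp2, Cubn, Slc9a3, Slc2a2 and Slc4a4) and EIC 66 of 4 (Slc34a1, Slc34a3, Slc5a2 and Slc5a12), while EIC + S120 81 had that of Aqp1. The lowest value came from Control 653 for 3 members, from EIC 68 for 3, from EIC + S60 72 for 2, and from EIC 65 and EIC + S120 77 for 1 each. In Control 653 the summed level of 6 collecting duct markers was 1640 CPM, against at most 876.4 CPM in the other 19 mice, and that of the other proximal tubule markers was the lowest of all mice, at 13190 CPM. The part of tissue composition in its low values was not tested, and none of the members passed without this library either.

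Apart from Aqp1, the genes tended to move together, some pairs closely and others only loosely. Over the 20 mice, all 36 pairs without Aqp1 had a positive Pearson r of log2 CPM, with a median of 0.63. The highest values were 0.91 for Lrp2 with Cubn and 0.91 for Slc34a1 with Slc5a12, and 0.84 for Slc34a3 with Slc5a2, while the lowest was 0.05 for Slc34a1 with Slc9a3. Without Control 651 the first 2 were 0.89 and 0.91, and with group means removed Slc34a1 with Slc2a2 reached 0.97. Without Control 651, 35 of the 36 pairs were positive, the exception being Slc34a1 with Slc9a3 at −0.04, and with group means removed all 36 were. All 9 pairs with Aqp1 were negative, between −0.55 with Slc34a3 and −0.03 with Lrp2, and with group means removed 8 of the 9 were, the exception being Lrp2 at 0.17. These values describe 20 libraries that share preparation and scaling, and CPM of abundant genes are tied to each other through the library total.

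The mean standardised log2 CPM of the members was compared with 12801 other genes of at least 1 CPM. Among the closest were Actr2 (r = 0.958), which encodes a subunit of the actin-nucleating Arp complex, Tpp1 (0.946), a lysosomal peptidase, Lamp2 (0.945), a lysosomal membrane protein, and Sidt2 (0.933), another lysosomal membrane protein. The most opposed were Pacsin3 (−0.884), Tmem158 (−0.883), Hoxb9 (−0.883), Anxa2 (−0.875) and Ormdl3 (−0.873), with n = 20 mice in each case. With group means removed, r lay between 0.934 and 0.954 for the first 4 genes and between −0.918 and −0.883 for the last 5. Across mice the same mean had r = 0.50 with the summed level of the other proximal tubule markers, −0.61 with that of collecting duct and −0.43 with that of thick ascending limb and distal tubule markers.

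Long transcripts and short transcripts did not keep 1 ratio in all libraries, and some members are long. Log2 CPM of each gene was centred over the libraries. An index took the median of 2405 genes with over 8 kb of exon minus that of 1818 genes under 2 kb. It was 0.26 in Control 651, −0.23 in EIC 68 and −0.24 in EIC + S120 81, and between −0.12 and 0.16 in the other 17. Over the 20 mice it had r = 0.74 with Slc9a3, 0.60 with Lrp2, 0.56 with Slc4a4 and 0.51 with Cubn, −0.55 with Aqp1 and values between −0.06 and 0.26 with the other five. Lrp2, Cubn and Slc4a4 have 16701, 14935 and 10815 bases of exon and so are over 8 kb. Slc9a3, which had the highest r, is not, with 5504 bases, and Slc2a2, with 5755 bases, had r = 0.26. The medians of the index were −0.06 in EIC, −0.02 in EIC + S60, 0.01 in EIC + S120 and 0.03 in Control mice. The part of this index in the LFCs of the members was not tested.

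The straight segment and injury genes gave no call either. Of 8 markers of the last proximal segment, S3, none passed in any comparison, and the largest median LFC was 0.20, in EIC + S120 vs. Control. At most 2 of the 8 had an unadjusted p under 0.05 in a comparison, against 6.05% to 20% of all genes. Acy3, an aminoacylase, had LFCs of 0.26, 0.29 and 0.25 in EIC, EIC + S60 and EIC + S120 vs. Control (adjusted p = 0.112, 0.122 and 0.101 by edgeR). Of 8 tubular injury genes, 6 were tested and none passed. At most 1 of the 6 had an unadjusted p under 0.05 in a comparison, against the same shares of all genes. The median LFC of the 6 in EIC + S120 vs. Control was −0.25, against −0.01 over all genes. For Vcam1, an adhesion molecule, the LFC of EIC + S120 vs. Control was 0.53 (95% interval 0.17 to 0.98, adjusted p = 0.109 by edgeR), and for Lcn2, an iron-siderophore binding protein, it was −0.42 (95% interval −1.28 to 0.32, adjusted p = 0.6). Havcr1, which encodes the injury marker KIM-1, stood at 65.3 CPM in mouse EIC + S60 72, at 32.2 CPM in mouse EIC + S120 78 and at 44.4 CPM in Control 651, against 0.872 to 1.9 CPM in the other 17 mice. Its LFCs of −3.17 in EIC vs. Control (adjusted p = 0.345 by edgeR) and 3.60 in EIC + S60 vs. EIC (95% interval −1.02 to 3.62, adjusted p = 0.813) each involve a group in which 1 mouse stood far above the other four.

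Over all 9 lists, 77 of 79 genes were tested. In EIC vs. Control 3 passed, or 3.9% against 2.97% of all genes, in EIC + S60 vs. Control 2 (2.6% against 1.29%) and in EIC + S120 vs. Control 7 (9.09% against 5.55%), all of them higher, and in the other comparisons 0. Among 12 further proximal tubule markers, 3 rose in EIC + S120 vs. Control. They were Slc27a2, a fatty acid transport protein (LFC 0.47, adjusted p = 0.00291 by edgeR), Miox, the enzyme that breaks down inositol (LFC 0.56, adjusted p = 0.00138), and Keg1 (LFC 0.59, adjusted p = 0.0367), whose call was lost without Control 651, 652 or 653 or EIC + S120 79, 80 or 81. Slc27a2 also rose in EIC vs. Control (LFC 0.35, adjusted p = 0.0412), a call lost in 9 of 20 fits, those without Control 652, 653, 654 or 655, EIC 65, 66, 68 or 69 or EIC + S60 71.

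Beside these, 3 of 6 macrophage markers rose in EIC vs. Control, namely Adgre1 (LFC 1.73), C1qa (1.46) and C1qb (1.49), with adjusted p between 0.00379 and 0.00586 by edgeR, and their calls were lost without both deep Control libraries. In that comparison 2.97% of all genes passed. The 6 macrophage markers summed to 73.58 to 165.2 CPM in EIC mice, against 70.35 to 91.88 CPM in Control mice. Of 6 collecting duct markers 1 fell in EIC + S120 vs. Control, where 5.55% of all genes passed. It was Aqp3, a basolateral water channel, with an LFC of −0.45 (adjusted p = 0.00291 by edgeR). The 6 collecting duct markers summed to 480.6 to 827.2 CPM in EIC + S120 mice, against 609.0 to 1640 CPM in Control mice. No marker of podocytes, endothelium or thick ascending limb and distal tubule passed in any comparison, and of the adrenal markers only Star had enough counts to be tested and did not pass.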

How the data were processed

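RNA was poly(A)-selected and sequenced from kidneys of 20 mice. Per the submitters' processing notes and methods, the authors used Trimmomatic 0.36 for trimming, STAR 2.5.2b for alignment to GRCm38 and featureCounts (Subread 1.5.2) for counting, followed by DESeq2. The deposited values are whole-number counts per gene, not normalized. Which annotation, strand setting and piece of kidney were used is not given in the sources used here. Reads of overlapping or antisense genes cannot be told apart.

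A gene was tested where 5 or more libraries held 10 or more counts (13990 of 15780 genes). edgeR 4.0.16 (R 4.3.3) fitted 1 coefficient per group to all 20 libraries with TMM scaling and the robust quasi-likelihood test. Adjustment followed Benjamini and Hochberg across the genes tested, with a threshold of 0.05. SEs and 95% intervals came from limma-trend (limma 3.58.1) on log2 CPM (prior count 2), so an interval need not be centred on the edgeR LFC. Totals ranged from 12662345 to 38651781 counts. Replicates differed by more than counting noise (chi-square per degree of freedom 6.27 to 70.9), so none was a library deposited in duplicate. The mice are separate animals.

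Alternatives were DESeq2 1.42.0, limma-voom, RLE and upper-quartile scaling, no filter, no robust option, only the libraries compared, no deepest 2 Control libraries, and each library left out. Coordinates and exon lengths came from GENCODE vM21 (15369 of 15780 symbols matched) and promoter windows from RefSeq. Text names all 10 members, and from each list up to 4 genes that passed, by p, or up to 2 where none passed; for likeness, the 5 highest and the 5 lowest r. Havcr1 was added after its values were seen. Some genes and motifs that these rules cover are not reported here. Members and lists were chosen with earlier results of these data known.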

Additional observations from a re-analysis of the deposited data

Results flagged for a closer look

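Single mice stood apart from the rest of their group in 10 of 72 sets of 5 values over 18 genes. The rule was a gap to the nearest value above 0.71 of the group's range. Chance would give about 1 in 20, or 3.6, if the sets were independent. They were not, since most members varied together over mice, and Havcr1 was added after its values were seen. These counts therefore give no test of chance. Mouse EIC + S120 77 was the lowest of its group for Slc34a1 (4262 CPM), Slc5a2 (402.7 CPM), Pck1 (5621 CPM) and Slc13a3 (952.0 CPM). Control 653 was the lowest of its group for Aqp1 (1252 CPM) and Slc13a3 (700.5 CPM). Control 651 was the highest of its group for Slc4a4 (1974 CPM) and Havcr1 (44.41 CPM). Havcr1 was also set apart at the top in EIC + S60 72 (65.28 CPM) and EIC + S120 78 (32.21 CPM).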

How the results depend on the processing

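No member passed in any comparison under any of the 28 alternatives, and the smallest adjusted p was 0.055 with 1 library left out and 0.069 otherwise. Of 1200 LFCs of members with 1 library left out, 40 changed sign, in 19 results, and of 480 others, 3 did. With 1 library left out, the LFC in EIC vs. Control ranged from −0.092 to 0.11 for Slc34a3 and from −0.087 to 0.26 for Slc5a12. In EIC + S60 vs. EIC it ranged from −0.036 to 0.18 for Slc34a3, from −0.15 to 0.060 for Slc5a2 and from −0.015 to 0.16 for Slc9a3. In EIC + S120 vs. EIC it ranged from −0.15 to 0.0092 for Slc5a2, from −0.064 to 0.028 for Aqp1 (0.0025 by limma-voom) and from −0.18 to 0.028 for Slc2a2. In EIC + S60 vs. Control it ranged from −0.021 to 0.19 for Lrp2, from −0.19 to 0.040 for Slc2a2 and from −0.10 to 0.25 for Slc4a4. In EIC + S120 vs. Control it ranged from −0.18 to 0.032 for Lrp2, from −0.0078 to 0.28 for Cubn, from −0.014 to 0.12 for Slc5a2 and from −0.20 to 0.15 for Slc4a4. In EIC + S120 vs. EIC + S60 it ranged from −0.16 to 0.019 for Cubn, from −0.057 to 0.10 for Slc34a1, from −0.16 to 0.038 for Slc5a2 and from −0.14 to 0.048 for Slc5a12. Without both deepest Control libraries, the LFCs of Slc2a2 in EIC + S60 vs. Control and Slc4a4 in EIC + S120 vs. Control were 0.092 and 0.15. The difference of the log2 ratio of Slc5a1 to Slc5a2 in EIC + S60 vs. Control ranged from −0.068 to 0.16. The cause of these sign changes was not tested. Genes called over all genes were 416 in EIC vs. Control (124 to 696 over the alternatives), 0 in EIC + S60 vs. EIC (0 to 5), 8 in EIC + S120 vs. EIC (1 to 59), 180 in EIC + S60 vs. Control (103 to 348), 777 in EIC + S120 vs. Control (489 to 1172) and 9 in EIC + S120 vs. EIC + S60 (2 to 85). The calls of G6pc, Pck1 and Slc27a2 in EIC vs. Control and of Car4 in EIC + S120 vs. Control were also lost when only the libraries compared were fitted and without both deepest Control libraries, and that of Car4 also with no filter on low counts. Leaving out those Control libraries also ended those of Pck1 and Slc13a2 in EIC + S60 vs. Control and of Keg1 in EIC + S120 vs. Control, and fitting only the libraries compared ended that of Slc13a2 in EIC + S120 vs. Control. No paired analysis was possible because the groups share no mouse numbers. With 5 mice a group, the widest 95% intervals of a member's LFC reach about 0.4 on either side of it, so smaller differences could go undetected. The intervals are not adjusted for the number of genes tested, so larger differences could also fail the test. The largest estimate of a member in EIC + S60 vs. EIC, an LFC of 0.43 for Lrp2, did not pass (adjusted p = 0.738 by edgeR). It was 0.32 without EIC 68, and these data do not settle whether it is a true difference.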
